A study of Homo sapiens with 12 samples.

Results

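The ID genes and a set of BMP pathway genes, 10 genes of the 38478 in the matrix, were followed in OPM-1 cells, a line derived from human multiple myeloma. They were chosen by their measured response: ID1 was lower and ID2 higher in lenalidomide-treated than in DMSO-treated cells, and ID3, ID4, SMAD1, SMAD5, SMAD6, SMAD7, BAMBI and BMPR2 were taken with them as relatives and pathway partners. Cells were treated for 48 h with the solvent DMSO, with 0.1 μM lenalidomide (LEN), which directs the IKZF1 and IKZF3 transcription factors to degradation, with 1 μM AI-10-104, an inhibitor of the RUNX transcription factors, or with LEN+AI-10-104. Each of the 4 conditions had 3 samples, which the study describes as independent experiments, and polyadenylated RNA was sequenced to ask what RUNX inhibition adds to lenalidomide. The model is a single cell line without bone marrow partners, and p-values measure the spread between these experiments.

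BMPs are secreted ligands that bring type I and type II receptors together, and the activated type I receptor phosphorylates SMAD1 and SMAD5, which enter the nucleus with SMAD4. Their best-known target genes are the ID genes, whose proteins lack a DNA-binding region and hold E proteins, a class of basic helix-loop-helix transcription factors, away from DNA. SMAD6, SMAD7 and BAMBI are made in response to the same signals and dampen them, and BMPs are known to restrain the growth of many myeloma cells.

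Each sample had between 16352548 and 31386210 reads counted on genes. The median sample had 30219883 reads under DMSO, 28795905 under LEN, 23153105 under AI-10-104 and 19417027 under both drugs. Levels are given in RPKM, the reads on a gene divided by its length and by the total reads counted in the sample. Of 12 plasma cell markers 10 had a mean of at least 0.5 RPKM, among them SDC1 (146 RPKM), XBP1 (523 RPKM) and IRF4 (207 RPKM), while DERL3 was at 0 and FCRL5 at 0.0281 RPKM. The summed plasma cell markers ran from 4638 to 4884 RPKM in DMSO and from 4526 to 4674 with LEN. They ran from 5044 to 5293 RPKM with AI-10-104 and from 4409 to 4633 in LEN+AI-10-104. Most of each sum was JCHAIN (mean 3285 RPKM), and the part of the difference between conditions in the results was not tested. Of 12 markers of other blood cells only HBB passed 0.5 RPKM, at a mean of 19.8 RPKM (18.2 to 22.9 over the samples). CD3D, FCGR3A, PAX5 and PPBP were at 0, and of 8 stromal markers only PECAM1 passed 0.5 RPKM. The summed stromal markers were at 0.932 to 0.950 RPKM in DMSO and between 1.13 and 1.48 RPKM in the treated samples, nearly all of it PECAM1, and their part in the results was not tested. AI-10-104 replicate 2 stood apart: without it the genes passing the test between LEN+AI-10-104 and AI-10-104 went from 408 to 764, and those between AI-10-104 and DMSO from 199 to 443.

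The promoter sequences of ID1, ID2 and BAMBI are shown because these are the members whose levels separated the conditions. Each window is the 250 bases before the RefSeq start on GRCh38.p14, plus strand, and capitals mark matches, on either strand, to the RUNX core TGTGGT, the GC element GGCGCC bound by BMP SMADs, the SMAD element GTCTAGAC, the Ikaros core TGGGAA and the E-box CANNTG, the site of E proteins. The windows lie at chr20:31605039-31605288 for ID1, chr2:8681806-8682055 for ID2 and chr10:28677271-28677520 for BAMBI. The ID2 window lies inside the ID2 gene of GENCODE 44, which begins at chr2:8678845, so its matches concern the RefSeq start only.
ID1: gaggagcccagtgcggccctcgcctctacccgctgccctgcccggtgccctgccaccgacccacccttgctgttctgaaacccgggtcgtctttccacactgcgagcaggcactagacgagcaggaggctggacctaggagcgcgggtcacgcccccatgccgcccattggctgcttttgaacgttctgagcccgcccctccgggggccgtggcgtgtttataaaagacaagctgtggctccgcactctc
ID2: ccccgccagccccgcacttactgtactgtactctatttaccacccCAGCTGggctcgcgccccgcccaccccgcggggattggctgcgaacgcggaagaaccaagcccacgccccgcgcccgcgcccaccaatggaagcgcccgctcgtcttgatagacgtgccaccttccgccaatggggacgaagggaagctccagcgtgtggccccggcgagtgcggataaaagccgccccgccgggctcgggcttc
BAMBI: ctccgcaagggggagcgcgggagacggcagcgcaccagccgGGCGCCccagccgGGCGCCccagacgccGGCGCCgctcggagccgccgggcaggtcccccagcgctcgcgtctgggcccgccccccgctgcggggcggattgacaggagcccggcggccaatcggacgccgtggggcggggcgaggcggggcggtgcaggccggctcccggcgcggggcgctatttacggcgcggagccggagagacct

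The BAMBI window held GGCGCC at 3 places, starting at positions −209, −196 and −181 from the start, the ID2 window held 1 E-box at −205, and the ID1 window held none of the 5 motifs. Among all 34943 windows of this length, GGCGCC was found in 16.35%, TGTGGT in 10.99%, GTCTAGAC in 0.18%, TGGGAA in 20.86% and CANNTG in 61.83%. Bases G and C made up 81.2% of the BAMBI window, 66.0% of that of ID1 and 69.2% of that of ID2. A match describes the letters in the window and does not show a bound site, and a window without a match says nothing about sites elsewhere.

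ID1 (chr20:31605283-31606515, plus strand, GENCODE 44 on GRCh38) stepped down through the 4 conditions. Its level was 29.2, 28.7 and 31.9 RPKM in the DMSO samples and 18.9, 19.7 and 19.3 RPKM in the LEN samples. With AI-10-104 it was 13.5, 15.4 and 17.7 RPKM, and with LEN+AI-10-104 it was 10.7, 11.2 and 11.6 RPKM. No sample of any condition overlapped with those of the next in the order DMSO, LEN, AI-10-104, LEN+AI-10-104. The means were 29.9 ± 1.73, 19.3 ± 0.364, 15.5 ± 2.14 and 11.1 ± 0.474 RPKM (SD, n = 3), and the fitted level with both drugs was 0.374 of that with DMSO.

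ID2 (chr2:8678845-8684461, plus strand) went the other way. Its level was 21.7, 23.2 and 19.1 RPKM in DMSO and 40.3, 40.9 and 33.5 RPKM in LEN. With AI-10-104 it was 28.5, 33.1 and 25.6 RPKM, and with LEN+AI-10-104 it was 46.5, 46.2 and 38.2 RPKM. All AI-10-104 samples lay above the DMSO samples and below the LEN samples, in the second case by a narrow margin, and the LEN and LEN+AI-10-104 samples overlapped. The means were 21.4 ± 2.09, 38.2 ± 4.16, 29.0 ± 3.79 and 43.6 ± 4.73 RPKM (SD, n = 3), and the fitted level with both drugs was 2.04 times that with DMSO.

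The balance of ID1 and ID2 differed more between conditions than the summed level of the ID genes. The ratio of ID2 to ID1, both per kilobase, was 0.718 ± 0.108 in DMSO, 1.98 ± 0.219 with LEN, 1.90 ± 0.397 with AI-10-104 and 3.93 ± 0.566 in LEN+AI-10-104 (SD, n = 3). The summed level of ID1, ID2, ID3 and ID4 was 52.0 ± 0.524 RPKM in DMSO, 58.3 ± 4.07 with LEN, 45.5 ± 3.41 with AI-10-104 and 55.5 ± 4.24 in LEN+AI-10-104. The ratio rests on the deposited gene lengths, 1233 bases for ID1 and 1364 bases for ID2, where the exons of ID2 in GENCODE 44 cover 2213 bases. Its DMSO and LEN values follow from how both genes were chosen and are a description.

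**Figure D1:**
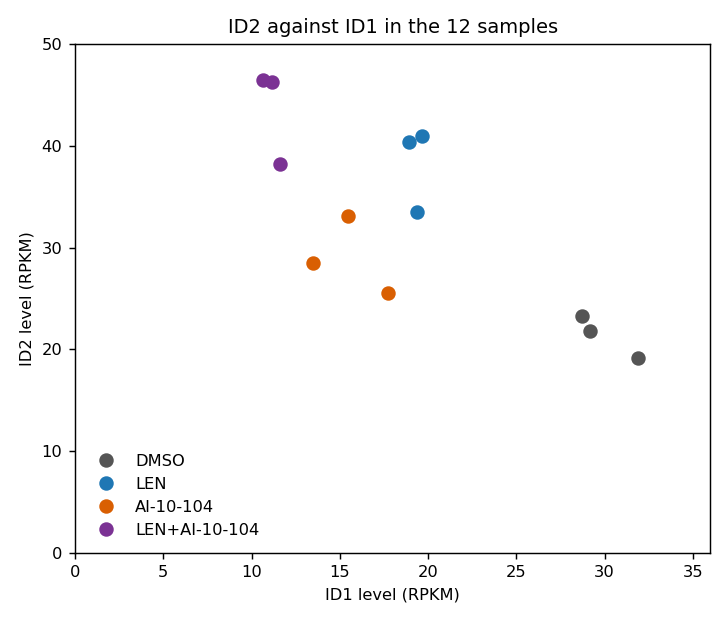
Level of ID2 (vertical axis, RPKM) against the level of ID1 (horizontal axis, RPKM), with each of the 12 samples as a point coloured by condition. The DMSO samples sit at the right and bottom, with ID1 at 28.7 to 31.9 and ID2 at 19.1 to 23.2 RPKM, and the LEN+AI-10-104 samples at the left and top.

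The other ID genes were hardly present. ID3 (chr1:23557926-23559501, minus strand) was at 0.530 to 0.941 RPKM over the 12 samples, on 13 to 31 reads each, with means of 0.750 in DMSO, 0.734 with LEN, 0.894 with AI-10-104 and 0.750 RPKM in LEN+AI-10-104. AI-10-104 was the only condition with all samples above all DMSO samples, LEN and LEN+AI-10-104 overlapped with DMSO, and no test of ID3 passed. ID4 (chr6:19837370-19842197, plus strand) had 0 reads in 10 samples, 2 in LEN replicate 2 and 1 in LEN+AI-10-104 replicate 2, all within the 3 reads taken as the limit of detection, which covers counting error only.

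LEN against DMSO was the comparison that chose the genes and is given without a test. On the scale of log2(RPKM + 0.1), the difference was −0.63 (SE 0.08) for ID1 and 0.84 (SE 0.11) for ID2. Of the 8 members with a mean of at least 0.5 RPKM, ID2, BAMBI, SMAD1 and BMPR2 were higher in all LEN than in all DMSO samples and ID1 was lower, which makes 4 higher and 1 lower with 3 overlapping. Of all 11241 genes, 9.42% were higher and 7.03% lower without overlap in this comparison. For the other groupings of samples described here, the share of all genes without overlap was not counted. The median difference was 0.10 over the 8 members and −0.0021 over all genes.

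LEN+AI-10-104 against AI-10-104 asks what lenalidomide does in cells that also receive AI-10-104. None of the samples compared belongs to the LEN against DMSO comparison by which ID1 and ID2 were chosen. The spread used in the tests was estimated over all 12 samples, however, so the LEN and DMSO samples entered it. ID1 was lower, with a log2 fold change of −0.47 (SE 0.08, 95% interval −0.64 to −0.29), in limma's moderated test with a p-value of 0.0059 adjusted over all genes. ID2 was higher, with a log2 fold change of 0.59 (SE 0.11, 95% interval 0.34 to 0.84) and an adjusted p of 0.0092. In linear terms ID1 fell to 0.722 of the AI-10-104 level and ID2 rose 1.50-fold, and for both genes the LEN+AI-10-104 samples did not overlap with the AI-10-104 samples. The log2 fold change without AI-10-104 replicate 2 was −0.47 for ID1 and 0.69 for ID2. Over 20 other settings the log2 fold change ran from −0.57 to −0.37 for ID1 and from 0.50 to 0.69 for ID2, and both passed in each.

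BAMBI (chr10:28677510-28682932, plus strand), a membrane protein shaped like a type I receptor but without the kinase, was the third member to change. Its level was 15.8, 15.5 and 16.7 RPKM in DMSO and 20.2, 18.6 and 20.5 RPKM in LEN. It was 13.1, 13.3 and 13.6 RPKM in AI-10-104 and 17.1, 16.8 and 17.1 RPKM in LEN+AI-10-104. No sample overlapped between neighbouring conditions in the order LEN, LEN+AI-10-104, DMSO, AI-10-104, so BAMBI was high with lenalidomide and low with AI-10-104. LEN+AI-10-104 exceeded AI-10-104 by a log2 fold change of 0.35 (SE 0.04, 95% interval 0.25 to 0.44, adjusted p = 0.0011). That interval reaches below the 0.32 that a call required beside an adjusted p of at most 0.05, but all 20 other settings kept the call, and without AI-10-104 replicate 2 the difference was 0.34.

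SMAD7 (chr18:48919853-48950965, minus strand), an inhibitory SMAD that blocks receptor signalling, was lowest with AI-10-104 alone. Its level was 10.1, 9.97 and 9.27 RPKM in DMSO, 9.68, 11.0 and 9.74 RPKM with LEN, 7.24, 8.42 and 8.48 RPKM with AI-10-104 and 9.62, 10.9 and 9.17 RPKM in LEN+AI-10-104. Every AI-10-104 sample was below all 9 other samples, and the other conditions overlapped. Against AI-10-104, LEN+AI-10-104 differed by 0.30 in log2 (95% interval 0.12 to 0.47, adjusted p = 0.031), under the fold change needed for a call. Without AI-10-104 replicate 2 the difference was 0.33 (adjusted p = 0.022) and without LEN+AI-10-104 replicate 3 it was 0.35 (adjusted p = 0.033), and SMAD7 then counted as higher, within a range of adjusted p of 0.012 to 0.12 over the 20 settings.

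The remaining members did not pass in LEN+AI-10-104 against AI-10-104. The intervals of the log2 difference were 0.05 to 0.26 for SMAD1, which carries the BMP signal (adjusted p = 0.051), and −0.17 to 0.02 for SMAD5, its partner (adjusted p = 0.27). They were 0.0016 to 0.57 for BMPR2, the type II BMP receptor (adjusted p = 0.15), and −0.66 to 0.16 for ID3 (adjusted p = 0.38). In all, 2 members of 8 were higher (ID2 and BAMBI), where 3.16% of all genes were, and 1 was lower (ID1), where 0.471% of all genes were. ID1 and ID2 had been chosen by their response to lenalidomide, so these counts are a description. The median log2 difference was 0.22 over the 8 members and 0.02 over all genes.

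**Figure D2:**
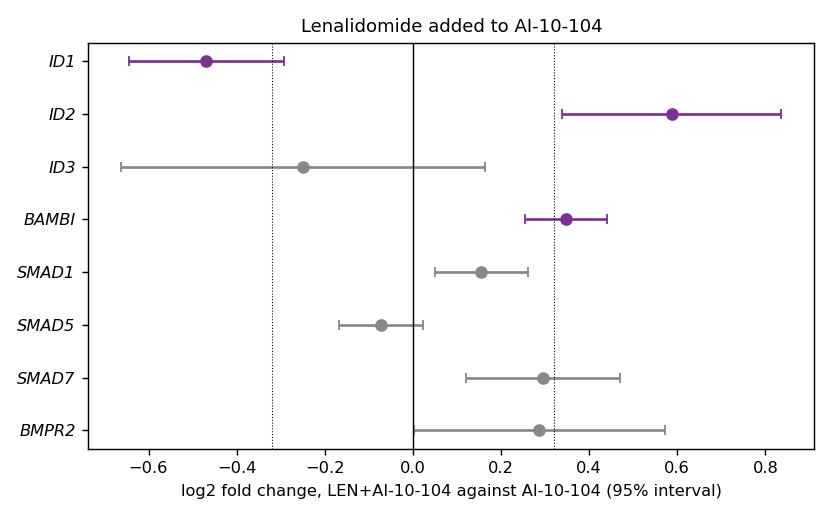
Log2 fold change of LEN+AI-10-104 against AI-10-104 (horizontal axis) for the 8 members tested, with 95% intervals from limma as bars. Purple marks the members that passed, ID1 at −0.47, ID2 at 0.59 and BAMBI at 0.35, the dotted lines stand at the fold change required for a call, and the other members are grey.

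SMAD1 (chr4:145481194-145559176, plus strand) differed little, with 19.9, 20.3 and 20.2 RPKM in DMSO, 23.6, 21.2 and 22.2 with LEN, 20.1, 18.9 and 19.6 with AI-10-104 and 22.2, 22.8 and 20.4 RPKM in LEN+AI-10-104. All samples with lenalidomide lay above all samples without it, the nearest of them, LEN+AI-10-104 replicate 3 and DMSO replicate 2, by a narrow margin. SMAD5 (chr5:136132845-136188747, plus strand) was at 7.87 to 9.04 RPKM over the 12 samples, with neighbouring conditions overlapping in the order of their means. SMAD6 (chr15:66702236-66782849, plus strand), the inhibitory SMAD most specific to BMP signals, was at 0.371 to 0.705 RPKM on 59 to 123 reads, and its mean of 0.480 RPKM lay under the 0.5 RPKM required for the test. With 24115 genes admitted, SMAD6 differed by 0.17 between LEN+AI-10-104 and AI-10-104 (95% interval −0.23 to 0.56, limma adjusted p = 0.68).

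BMPR2 (chr2:202376327-202567751, plus strand) had 1.09, 1.15 and 1.20 RPKM in DMSO, 1.57, 1.23 and 1.45 with LEN, 1.09, 0.897 and 0.865 with AI-10-104 and 1.34, 1.23 and 0.980 RPKM in LEN+AI-10-104. The LEN samples lay above and the AI-10-104 samples below the DMSO samples, the latter by a narrow margin, and the LEN+AI-10-104 samples overlapped with those of the other conditions. In bulk RNA, a change in the RNA of every cell and a change in the share of cells that make it cannot be told apart, for these and for all other genes.

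**Figure D3:**
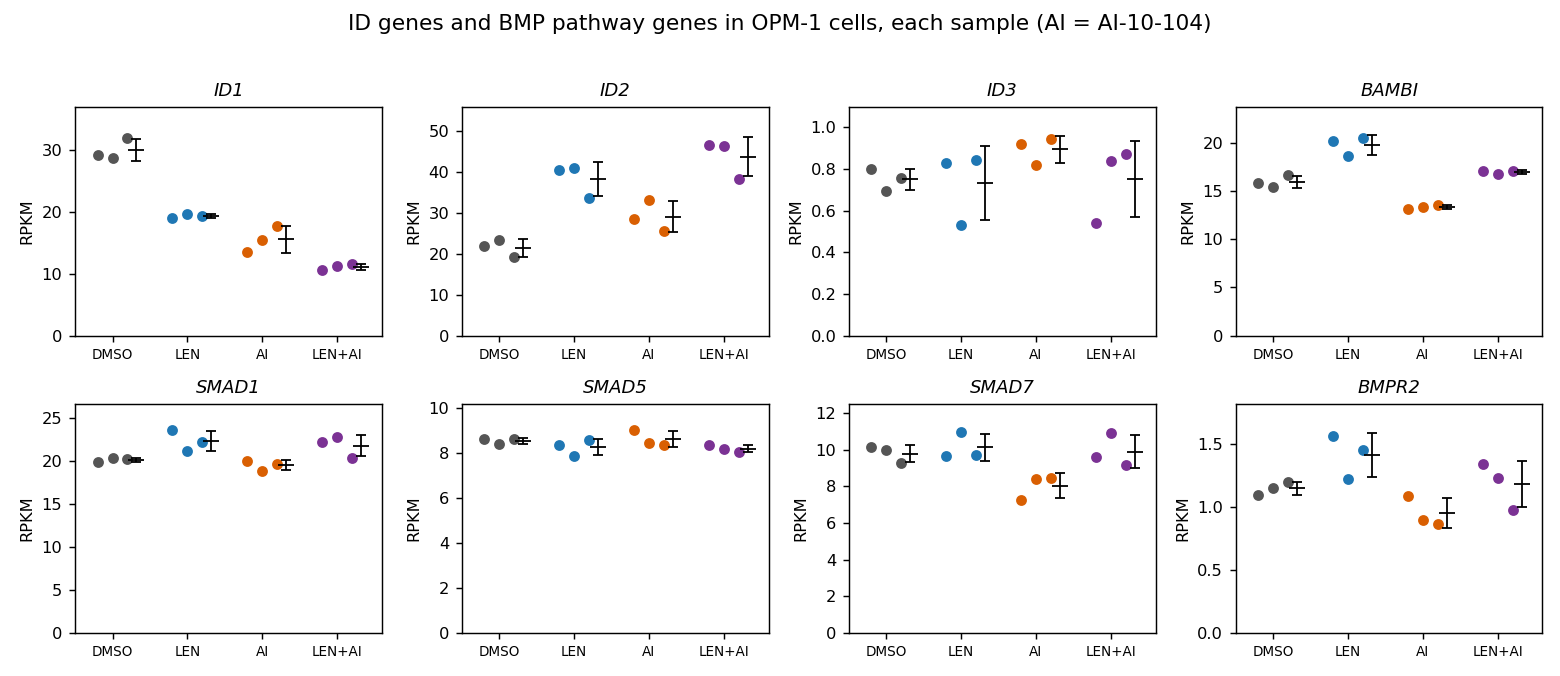
Level (vertical axis, RPKM, from 0) of the 8 members with a mean of at least 0.5 RPKM in the 4 conditions. Points are samples and the bar beside them gives the mean and SD (n = 3); ID1 steps down from 29.9 to 11.1 RPKM, ID2 goes up from 21.4 to 43.6 RPKM, and BAMBI is highest with LEN at 19.8 RPKM.

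AI-10-104 against DMSO compares cells given AI-10-104 alone with cells given the solvent. It shares the DMSO samples with the comparison that chose ID1 and ID2, so for these only the differences are given, −0.95 (SE 0.08) for ID1 and 0.44 (SE 0.11) for ID2 in log2, and without AI-10-104 replicate 2 they were −0.95 and 0.34. Of the 6 other members with enough signal 0 passed, where 0.685% of all genes were higher and 1.09% lower by limma. BAMBI was lower by a log2 fold change of −0.26 (95% interval −0.35 to −0.16, adjusted p = 0.0065), with the samples apart but under the fold change needed for a call. SMAD7 differed by −0.28 (95% interval −0.46 to −0.11, adjusted p = 0.067, or −0.32 with 0.039 without AI-10-104 replicate 2, just short of the fold change for a call, in a range of adjusted p of 0.012 to 0.25 over the 20 settings), SMAD1 by −0.05 (95% interval −0.15 to 0.06) and SMAD5 by 0.01 (95% interval −0.08 to 0.11). At an unadjusted p under 0.05 stood BAMBI and SMAD7.

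LEN+AI-10-104 against LEN asks what AI-10-104 adds to lenalidomide and shares the LEN samples with the comparison that chose the genes. ID1 differed by −0.79 (SE 0.08) and ID2 by 0.19 (SE 0.11) in log2, with ID1 below the LEN samples in all 3 samples and ID2 overlapping. Of the 6 other members 0 passed, where 0.872% of all genes were higher and 0.81% lower, or 98 against 91 genes, a split that became 71 against 109 with median-ratio rescaling of the samples. BAMBI was lower by −0.22 (95% interval −0.31 to −0.12, limma adjusted p = 0.015), again under the fold change needed for a call, and was the only one of the 6 at an unadjusted p under 0.05.

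LEN+AI-10-104 against DMSO compares both drugs with none. The log2 difference was −1.42 (SE 0.08) for ID1 and 1.03 (SE 0.11) for ID2, the farthest from 0 among the comparisons for either gene. Of the 6 other members 0 passed by limma, where 2.3% of all genes were higher and 0.641% lower, and SMAD1 alone stood at an unadjusted p under 0.05 (log2 difference 0.11, adjusted p = 0.20). The interval for BAMBI was −0.0038 to 0.18 around 0.09, that for SMAD7 −0.16 to 0.19 around 0.01 and that for BMPR2 −0.25 to 0.32 around 0.03. With voom, the limma method for counts, run on the recovered reads, the count of these members that passed was also 0 in each of the 3 comparisons.

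Of 114 further pathway genes 113 were in the matrix and 52 had a mean of at least 0.5 RPKM. Between LEN+AI-10-104 and AI-10-104, 5 of the 52 were higher and 0 lower, where 3.16% and 0.471% of all genes were, with a median log2 difference of 0.04 against 0.02 over all genes. The 5 were NOG, SMAD3, TGIF1, ZNF503 and HES6. Between AI-10-104 and DMSO 0 were higher and 1 lower (TGIF1), where 0.685% and 1.09% of all genes were. Between LEN+AI-10-104 and LEN 0 were higher and 1 lower (TGIF1), where 0.872% and 0.81% of all genes were. Between LEN+AI-10-104 and DMSO 3 were higher and 0 lower (NOG, SMAD3 and HES6), where 2.3% and 0.641% of all genes were.

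Among ligands 6 of 24 were tested and 0 called, led by TGFB1, a TGF-beta ligand, at a mean of 82.2 RPKM, and among receptors and co-receptors 8 of 16 were tested and 0 called, led by NEO1, a co-receptor partner, at 9.94 RPKM. Of the 17 extracellular antagonists 4 were tested, with TWSG1, a secreted BMP-binding protein, highest at 20.1 RPKM. NOG, which encodes the secreted BMP antagonist noggin, was at 2.21, 2.27 and 2.48 RPKM in DMSO, 3.18, 3.17 and 3.41 with LEN, 2.71, 2.85 and 2.42 with AI-10-104 and 4.06, 3.65 and 4.24 RPKM in LEN+AI-10-104. The samples with both drugs were above all others. NOG rose by a log2 fold change of 0.57 from AI-10-104 to LEN+AI-10-104 (95% interval 0.40 to 0.73, limma adjusted p = 0.0021) and by 0.75 from DMSO (95% interval 0.58 to 0.92, limma adjusted p = 0.00014), and without AI-10-104 replicate 2 the first difference was 0.61.

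Of 3 other SMAD genes tested, SMAD3, which carries TGF-beta signals, had means of 1.02 RPKM in DMSO, 1.32 with LEN, 1.30 with AI-10-104 and 1.73 in LEN+AI-10-104. Its log2 fold change in LEN+AI-10-104 was 0.71 against DMSO (limma adjusted p = 0.0019) and 0.38 against AI-10-104 (limma adjusted p = 0.032), and the second call was lost under 8 of 20 other settings, 5 of them the omission of AI-10-104 replicates 1, 2 or 3 or LEN+AI-10-104 replicates 1 or 3 (0.30 to 0.43). SMAD4, the common partner, led this list with a mean of 7.71 RPKM and was not called.

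Of 26 intracellular regulators 23 were tested, led by FKBP1A (94.0 RPKM), which keeps type I receptors silent. TGIF1, a corepressor of SMADs, was the only one called. It was at 1.33, 1.21 and 1.10 RPKM in DMSO, 1.60, 1.72 and 1.59 with LEN, 0.878, 0.840 and 0.819 with AI-10-104 and 1.18, 1.20 and 1.16 RPKM in LEN+AI-10-104. It was thus high with LEN and low with AI-10-104, as BAMBI was, and the samples with both drugs fell within the range of DMSO. TGIF1 fell by 0.47 in log2 from DMSO to AI-10-104 (limma adjusted p = 0.012), was 0.44 higher in LEN+AI-10-104 than in AI-10-104 (adjusted p = 0.010) and fell by 0.44 from LEN to LEN+AI-10-104 (adjusted p = 0.016). The first call was lost without DMSO replicate 1 (−0.40) or 2 (−0.47) or AI-10-104 replicate 3 (−0.45), with a pseudocount of 1 and with the compared conditions only. The third was lost without LEN replicate 1 (−0.45), 2 (−0.40) or 3 (−0.46) or LEN+AI-10-104 replicate 1 (−0.44) and with a pseudocount of 1. For these 2 calls the limma adjusted p reached 0.094 and 0.055 over the 20 settings. The second call was lost only with a pseudocount of 1 (0.24).

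Among other BMP response genes 4 of 15 were tested, led by RUNX2 (15.0 RPKM), a transcription factor of bone-forming cells. ZNF503, a zinc finger gene, was higher in LEN+AI-10-104 than in AI-10-104 by 0.49 in log2 (95% interval 0.28 to 0.70, limma adjusted p = 0.010), with means of 1.19 and 0.821 RPKM, and by 0.46 without AI-10-104 replicate 2. The call was lost under 1 of 20 other settings, a pseudocount of 1 (0.27). Of 12 E protein and other helix-loop-helix genes 4 were tested and the others lay under 0.5 RPKM. The 3 E protein genes, whose products ID proteins bind, had means of 86.8 RPKM for TCF3, 17.5 for TCF12 and 5.04 for TCF4. TCF4 differed by −0.26 between AI-10-104 and DMSO (limma adjusted p = 0.016) and by 0.22 between LEN+AI-10-104 and AI-10-104 (adjusted p = 0.017), both under the fold change needed for a call.

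HES6, a helix-loop-helix gene at a mean of 407 RPKM, was the only one of the 4 called. Its level was 359, 442 and 355 RPKM in AI-10-104 and 494, 491 and 463 RPKM in LEN+AI-10-104, against means of 371 in DMSO and 389 RPKM in LEN. The log2 fold change from AI-10-104 to LEN+AI-10-104 was 0.33 (limma adjusted p = 0.015), and without AI-10-104 replicate 2, the highest of its condition, it was 0.43 (adjusted p = 0.00029). The call was lost under 6 of 20 other settings, which were the omission of AI-10-104 replicate 1 (0.28) or 3 (0.28) or LEN+AI-10-104 replicate 1 or 2 (0.31 and 0.32), median-ratio rescaling (0.31) and a fit to the compared conditions only (adjusted p = 0.059), within a range of adjusted p of 0.00029 to 0.068. Against DMSO, HES6 was higher in LEN+AI-10-104 by 0.38 (limma adjusted p = 0.0084).

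**Figure D4:**
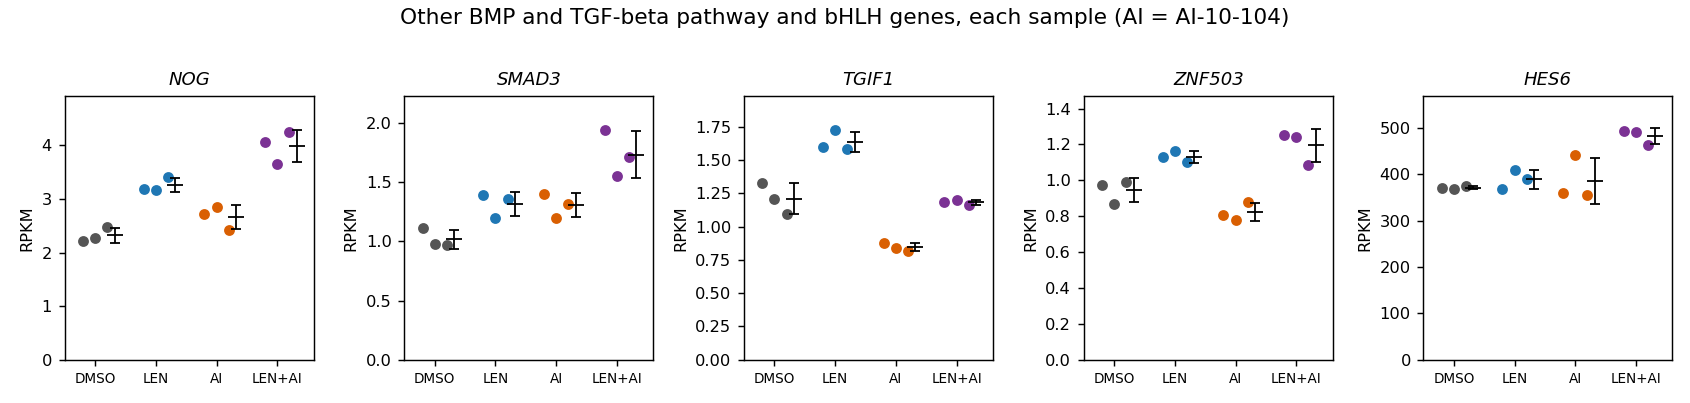
Level (vertical axis, RPKM, from 0) in the 4 conditions of the 5 further pathway genes that passed in at least 1 comparison. Points are samples and the bar beside them gives the mean and SD (n = 3); NOG is highest with both drugs at 3.98 RPKM, and TGIF1 is lowest with AI-10-104 at 0.846 RPKM.

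The genes most like ID1 over the 12 samples, by Pearson correlation of log2(RPKM + 0.1), were GEM (0.975), a small GTPase gene, PYCR1 (0.952), of proline synthesis, and MYADML2 (0.947). MYADML2 went from a mean of 4.76 RPKM in DMSO to 1.27 RPKM in LEN+AI-10-104. The genes most like ID2 were APOBEC3B (0.972), a cytidine deaminase gene, AMPD3 (0.953), an AMP deaminase gene, and RAPGEF3 (0.938), a cAMP-responsive exchange factor gene. APOBEC3B went from 3.24 to 5.54 RPKM between the same conditions. These correlations describe 12 samples that share 4 conditions and were picked as the highest among all genes tested.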

How the data were processed

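RNA-seq of 12 OPM-1 samples was used, 3 for each of 4 conditions. Poly(A) RNA was sequenced with a directional kit. The authors mapped with STAR on GRCh38, and the deposited table holds RPKM values beside the gene lengths used (FastQC, Cuffnorm and DESeq2 are also named in the submitters' processing notes). Versions and the strand setting of the counting are not given in the sources used here. RPKM times length, divided by its smallest step, gave whole reads for 100% of values (tolerance 0.1 read). Antisense genes overlapping ID2, SMAD1 and SMAD5 were at 0.174 RPKM or less.

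The 11241 genes averaging 0.5 RPKM or more entered limma 3.58.1 (R 4.3.3) as log2(RPKM + 0.1), all 12 samples together, 1 mean per condition, variance trend, Benjamini-Hochberg adjustment over all genes, and a call needed an adjusted p no higher than 0.05 with a log2 fold change of 0.32 or more in size. A fold change on this scale understates the change of low genes. Replicates differed by more than counting error (chi-square per degree of freedom 1.88 to 9.64 over 12 pairs). Named genes were the members, pathway genes called in at least 1 comparison, the highest gene of each pathway list, the E protein genes and the 3 genes most correlated with ID1 and with ID2. The members and lists were chosen with earlier results of these data known. Promoters are from RefSeq, coordinates from GENCODE 44, and all 10 members matched both. The script was checked on simulated data. The alternatives are those of the closing section. No sample was left out, and 28 genes named by date numbers kept them. Tables were handled with pandas 2.3.3.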

Additional observations from a re-analysis of the deposited data

Results flagged for a closer look

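TCF3 and TCF12 encode E proteins, the partners that ID proteins hold. For TCF3 the log2 difference was −0.04 (SE 0.04) between LEN and DMSO and 0.12 (SE 0.04) between LEN+AI-10-104 and AI-10-104. For TCF12 it was 0.05 (SE 0.05) between LEN and DMSO and −0.15 (SE 0.05) between LEN+AI-10-104 and AI-10-104. For both genes the LEN and DMSO samples overlapped, and for TCF3 the LEN+AI-10-104 and AI-10-104 samples did as well. They are listed because every LEN sample lay on 1 side of the DMSO mean and every LEN+AI-10-104 sample on the opposite side of the AI-10-104 mean. The difference between these differences was not tested, and neither gene was called in any comparison.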

How the results depend on the processing

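ID1, ID2 and BAMBI kept their direction and their call in LEN+AI-10-104 against AI-10-104 under all 20 other settings. These were a pseudocount of 1 or of 0.01, a filter at a mean of 1 RPKM or at any value above 0, median-ratio rescaling, the replicate block, a fit to the compared conditions only, voom on the recovered reads, and each of 12 samples left out. The count of members called in that comparison was 3 and ran from 3 to 4 as samples were left out, the fourth being SMAD7. In the other comparisons, where ID1 and ID2 were not tested and not counted, the count was 0 under every setting. Of the single-gene values, 60 lost and 11 gained a call, 7 moved with a pseudocount of 1, and 0 changed sign while called.

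Of all genes, 408 were called between LEN+AI-10-104 and AI-10-104 (243 with the compared conditions only, 431 with voom, 183 without AI-10-104 replicate 1, 213 without AI-10-104 replicate 3, 221 without LEN+AI-10-104 replicate 1 and up to 764 without AI-10-104 replicate 2) and 199 between AI-10-104 and DMSO (113 with the compared conditions only, 282 with voom, 119 without AI-10-104 replicate 1, 129 without AI-10-104 replicate 3, 127 without DMSO replicate 1 and up to 443 without AI-10-104 replicate 2). Between LEN+AI-10-104 and LEN 189 were called (127 to 213 leaving out samples, the lowest without LEN replicate 1) and between LEN+AI-10-104 and DMSO 331 (239 to 342). Of the further pathway genes, 5 were called between LEN+AI-10-104 and AI-10-104 (2 with a pseudocount of 1, 3 with the compared conditions only, 3 to 6 leaving out samples, 3 without AI-10-104 replicate 1 or 3 or LEN+AI-10-104 replicate 1). Between AI-10-104 and DMSO it was 1 (0 with a pseudocount of 1 or the compared conditions only, 2 with the replicate block or voom, 0 to 1 leaving out samples), and between LEN+AI-10-104 and LEN also 1 (0 with a pseudocount of 1, 2 with the replicate block or voom, 0 to 1 leaving out samples). The cause was not tested.

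Samples with the same replicate number deviated together only weakly (mean r 0.052, −0.027 to 0.155 over 18 pairs, against −0.026 over 36 pairs with different numbers). The main fit did not take the numbers as pairs. With the replicate block 473, 228, 218 and 368 genes were called in the 4 comparisons, against 408, 199, 189 and 331 without it, and no call of a member changed. The depth limits ID3, ID4 and SMAD6 most, at 13 to 31, 0 to 2 and 59 to 123 reads per sample.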

Other observations

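In each of the 4 conditions the lowest ID2 value belonged to replicate 3, at 19.1, 33.5, 25.6 and 38.2 RPKM in DMSO, LEN, AI-10-104 and LEN+AI-10-104, while the other replicates stood at 21.7 and 23.2, 40.3 and 40.9, 28.5 and 33.1, and 46.5 and 46.2 RPKM. The SE of the ID2 difference between LEN+AI-10-104 and AI-10-104 was 0.11 without and 0.04 with the replicate block. Over all genes, samples with the same replicate number deviated together only weakly. The ID2 pattern was noticed in these data and was not tested.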
